A study of Homo sapiens with 14 samples.

Results

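The genes of MHC class I antigen presentation described here are HLA-B, HLA-C, HLA-E, B2M, TAP1, TAP2, TAPBP, NLRC5 and PSMB9. They were matched by symbol to the Ensembl identifiers of the count table, which gave 9 genes of 61533 in the table. All 9 were among the 16056 genes that passed the filter on low counts. RNA was polyA-selected from SH-EP, a long-established human neuroblastoma line of mesenchymal character. The study compared cells with n-Myc in a SPARK-ON fusion, in which lenalidomide was used to induce phase separation of n-Myc, with an n-Myc control line that has no SPARK-ON. The groups were SPARK-ON with lenalidomide (n = 3), SPARK-ON with its solvent DMSO (n = 3), control with lenalidomide (n = 2) and control with DMSO (n = 3). The SPARK-ON line is a single clone, so a difference between the lines and a difference between clones cannot be told apart. No dose, no time of treatment and no separate cultures are named in the labels, so p-values measure the spread between these libraries, which may be technical. In bulk RNA, fewer cells that express a gene and less RNA per cell cannot be told apart.

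Class I molecules show peptides from inside the cell to CD8 T cells. Cytosolic proteins are cut by the proteasome, whose immunoproteasome form carries PSMB9, and the peptides are pumped into the endoplasmic reticulum by the transporter TAP1-TAP2. Tapasin, the product of TAPBP, holds the empty heavy chain (HLA-B, HLA-C or HLA-E) with its light chain B2M at the transporter until a peptide binds. NLRC5 is the transactivator of class I genes. It acts on a promoter module bound by RFX, CREB/ATF and NF-Y proteins, next to an NF-kappaB site and an interferon-stimulated response element (ISRE). Low class I expression is a known feature of neuroblastoma, most often of tumours with amplified MYCN.

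The proximal promoters of 4 members are shown because each holds letters of an NF-kappaB, ISRE or NF-Y element, although not all of them, and because HLA-B and HLA-C, the members with the lowest control counts, differ little in sequence there. Each is the 250 bases before the start of the gene in the RefSeq table (GRCh38.p14), 5′ to 3′ on the gene's strand. Capitals mark matches on either strand. The letters searched were GGG, any 2 bases, TT, any base and CC for NF-kappaB; GAAA, any 2 bases and GAAA for the ISRE; GAANNGAAA for a shorter ISRE; and CCAAT for the NF-Y box. The motifs were chosen after the sequences had been seen, and RFX and CREB/ATF letters were not searched. HLA-B lies on the minus strand at chr6:31357180-31357429, HLA-C on the minus strand at chr6:31272093-31272342, B2M on the plus strand at chr15:44711267-44711516 and TAP1 on the minus strand at chr6:32853705-32853954.
HLA-B: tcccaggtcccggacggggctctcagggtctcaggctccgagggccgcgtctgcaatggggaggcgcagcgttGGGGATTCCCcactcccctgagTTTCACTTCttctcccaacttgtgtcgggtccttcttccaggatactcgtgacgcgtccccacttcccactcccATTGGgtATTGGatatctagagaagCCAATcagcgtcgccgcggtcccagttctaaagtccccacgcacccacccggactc
HLA-C: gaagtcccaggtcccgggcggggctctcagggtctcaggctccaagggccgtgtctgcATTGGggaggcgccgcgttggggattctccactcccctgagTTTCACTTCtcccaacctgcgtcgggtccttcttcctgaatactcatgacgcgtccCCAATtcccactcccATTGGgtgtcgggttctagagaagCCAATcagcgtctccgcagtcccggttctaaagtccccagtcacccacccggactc
B2M: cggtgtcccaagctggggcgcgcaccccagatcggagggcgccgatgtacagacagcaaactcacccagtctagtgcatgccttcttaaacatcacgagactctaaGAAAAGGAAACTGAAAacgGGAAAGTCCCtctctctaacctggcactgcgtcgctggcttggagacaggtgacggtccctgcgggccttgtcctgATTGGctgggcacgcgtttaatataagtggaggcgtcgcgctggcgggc
TAP1: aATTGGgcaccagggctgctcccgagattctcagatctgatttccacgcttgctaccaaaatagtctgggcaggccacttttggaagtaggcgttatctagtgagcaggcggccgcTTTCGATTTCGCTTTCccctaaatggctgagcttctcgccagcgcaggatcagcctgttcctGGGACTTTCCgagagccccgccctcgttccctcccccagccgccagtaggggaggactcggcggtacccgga

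The table had entries for 7 of the 9 members, with none for HLA-E and NLRC5. The HLA-B and HLA-C promoters had the same base in 226 of 254 aligned columns (89.0%), 8 of the others being gaps. Both hold the shorter ISRE, and the NF-kappaB letters were found in HLA-B and not in HLA-C. The NF-kappaB letters were found in 4 of 7 members (HLA-B, B2M, TAP1 and TAPBP), against 5.07% of 35116 promoters of the same length. The full ISRE was found in 4 of 7 (B2M, TAP1, TAP2 and TAPBP), against 3.02% of all. The shorter ISRE was found in 3 of 7 (HLA-B, HLA-C and TAP2) and in 6.56% of all. CCAAT was found in 5 of 7 and in 32.0% of all, with 3 matches in HLA-B and 4 in HLA-C, and the match of TAP1 and that of PSMB9 are the same bases of the stretch between them. A member counts by its first entry, while the shares are over all entries, and a second entry of TAP1 held none of the letters. The E-box CACGTG, the letters bound by Myc-Max dimers, was found in 0 of 7 members and in 6.34% of all promoters. The starts of TAP1 and PSMB9 lie 488 bases apart and point away from each other. These matches describe letters only, and no binding was measured.

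Of the 11 libraries used, total counts ranged from 6614671 in SPARK-ON lenalidomide replicate 3 to 21511684 in control DMSO replicate 3. Levels are given as CPM, a gene's reads divided by the library's TMM-scaled size. A count of 0 allows up to 3 counts, which is 0.143 to 0.441 CPM depending on the library; such limits cover counting error only. MYCN, the gene of the design, was measured at 2186 to 2618 CPM in SPARK-ON and 2089 to 2762 CPM in control libraries, and counts per gene do not separate the fusion from other MYCN transcripts. Of the mesenchymal markers of SH-EP, VIM and CD44 were lower and FN1 was higher in SPARK-ON. The summed level of the 6 mesenchymal markers was 1237 to 1401 CPM in SPARK-ON and 2516 to 2716 CPM in control libraries. VIM and CD44 made up most of it, at 1007 to 1137 CPM in SPARK-ON and 2275 to 2552 CPM in control libraries, and the other 4 summed to 229 to 267 CPM in SPARK-ON and 164 to 240.5 CPM in control libraries. The 5 adrenergic neuroblastoma markers summed to between 5.0 and 8.28 CPM in SPARK-ON and 6.40 to 8.73 CPM in control libraries. Of 7 immune cell markers, CD3E and MS4A1 were at 0 counts in every library. The summed immune level was 1.27 to 2.71 CPM in SPARK-ON and 1.25 to 1.86 CPM in control libraries. On the third principal component (4.69% of variance), control DMSO replicate 1 (38.9) and control lenalidomide replicate 2 (16.6) stood apart from the other 3 control libraries, which were at -20.8 to -15.1. SPARK-ON lenalidomide replicate 3, the shallowest library, stood apart on the second component (5.16%).

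**Figure D1:**
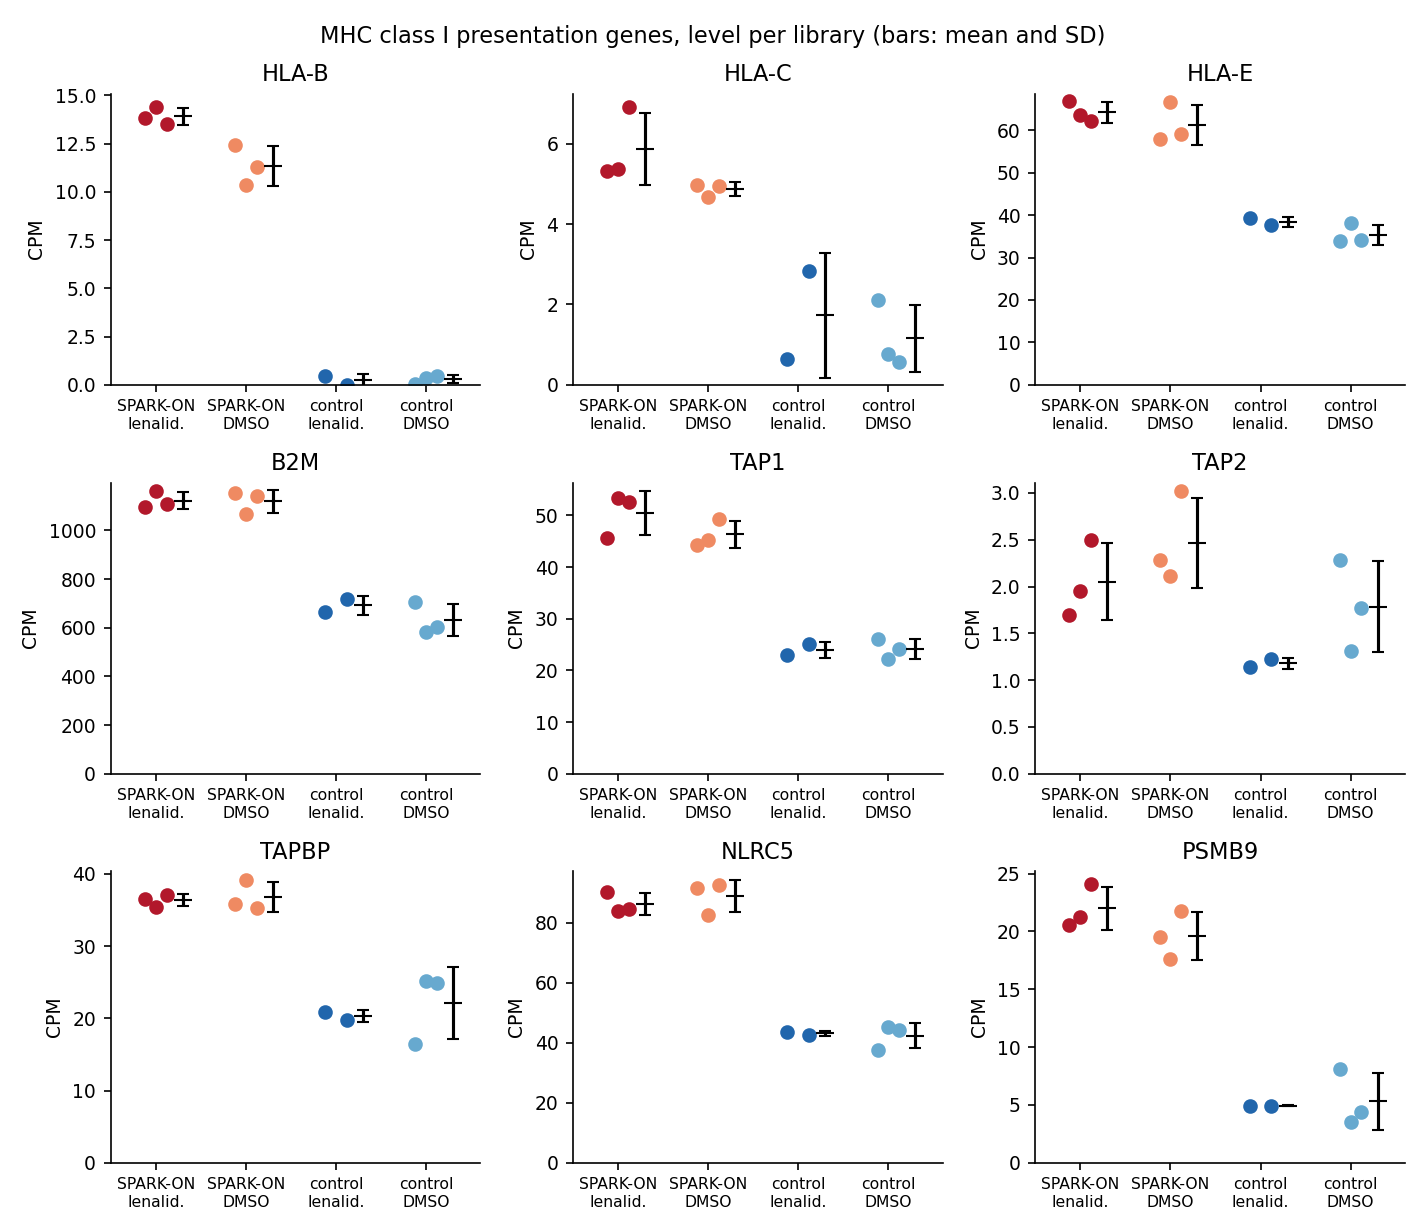
Level of each class I presentation gene in every library, in CPM, by group; points are libraries and bars are group means with SD. In 8 of the 9 panels every SPARK-ON library lies above every control library, and TAP2 is the panel in which they overlap.

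The comparison of the lines asks how the transcriptome of cells with n-Myc SPARK-ON differs from that of n-Myc control cells, first with the solvent alone. With DMSO, 8 of the 9 class I presentation genes were higher in SPARK-ON than in control cells and 0 were lower. Over all genes tested, 41.6% passed the test in this comparison, 21.1% as higher and 20.4% as lower. Changes ran from 0.73 for TAPBP to 5.20 for HLA-B on the log2 scale. The median change of the 9 members was 0.94, beside 0.01 over all genes. HLA-B passed the count filter through SPARK-ON libraries alone, so a difference between the lines was built into its presence among the genes tested. Of the other 8 members, 7 were higher, and their median change was 0.88. All tests are edgeR's quasi-likelihood test with Benjamini-Hochberg adjustment over the 16056 genes.

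With lenalidomide in both lines the same count was found, 8 of 9 members higher and 0 lower, against 39.4% of all genes called (19.7% higher and 19.7% lower). The median change of the members was 1.0, beside 0.02 over all genes. Without HLA-B, 7 of 8 were higher, with a median of 0.92. Every one of the 6 SPARK-ON libraries lay above every one of the 5 control libraries for 8 members, TAP2 being the exception. That pattern held for 18.7% of all genes tested, and the opposite pattern for 18.5%.

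Among the heavy chains, HLA-B, a classical class I chain, stood farthest apart between the lines. Its level was 13.8, 14.4 and 13.5 CPM in SPARK-ON with lenalidomide and 12.4, 10.4 and 11.3 CPM in SPARK-ON with DMSO. In control cells it was 0.443 and 0 CPM with lenalidomide and 0.0543, 0.357 and 0.478 CPM with DMSO. These are 1140 reads over the 6 SPARK-ON libraries and 24 reads over the 5 control libraries, and the lines do not come near each other. The log2 change with DMSO was 5.20 (SE 0.36, adjusted p = 1.58e-09), a fold of 36.7. HLA-B passed the count filter through SPARK-ON libraries alone, so a difference between the lines was built into its being tested. With lenalidomide the fitted change was 6.05 (SE 0.46, adjusted p = 7.57e-09), and its size rests on which control library is used. Without control lenalidomide replicate 2, which has 0 reads, it was 4.95 (adjusted p = 9.62e-08). Without control lenalidomide replicate 1 the fitted value was 10.85, which is no bound, since the remaining control library has 0 reads.

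HLA-C, the other classical chain among the members, was measured at 5.33, 5.38 and 6.91 CPM in SPARK-ON with lenalidomide and 4.98, 4.69 and 4.96 CPM in SPARK-ON with DMSO. Control cells had 0.632 and 2.82 CPM with lenalidomide and 2.12, 0.773 and 0.573 CPM with DMSO. The lines do not overlap, but the control libraries spread widely, with a coefficient of variation of 14.8% over SPARK-ON and 74.0% over control libraries. HLA-C was higher in SPARK-ON by 2.08 with DMSO (SE 0.41, adjusted p = 0.000516) and by 1.70 with lenalidomide (SE 0.46, adjusted p = 0.00625). Without control DMSO replicate 1 the DMSO difference was 2.85 (adjusted p = 1.85e-06). The lenalidomide difference was 3.17 (adjusted p = 0.000428) without control lenalidomide replicate 2, and 1.03, no longer past the threshold, without replicate 1 (adjusted p = 0.0815). Leaving out control DMSO replicate 1 and control lenalidomide replicate 2 together, a choice made after seeing the data, left 8 of 9 members higher in both line comparisons.

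The control libraries with the most HLA-C had the least HLA-B. HLA-B made up 66.2% to 72.8% of the reads of both genes together in the 6 SPARK-ON libraries. In control lenalidomide replicate 2 the share was 0% of 53 reads (exact 95% interval 0 to 6.72%), and in control DMSO replicate 1 it was 2.5% of 40 reads (0.0633 to 13.2%). The other control libraries had 41.2% of 17 reads (18.4 to 67.1%) in lenalidomide replicate 1, 31.6% of 19 reads (12.6 to 56.6%) in DMSO replicate 2 and 45.5% of 22 reads (24.4 to 67.8%) in DMSO replicate 3. The intervals of the first 2 of these libraries do not reach those of lenalidomide replicate 1 and DMSO replicate 3, while the interval of DMSO replicate 2 overlaps that of DMSO replicate 1 by a narrow margin. They are also the libraries that stood apart on the third principal component, 1 of each treatment, and the source of that split was not tested. The sources used here do not give how reads that fit several HLA genes were assigned. In the annotated transcripts, 2.5% of the 50-base windows of HLA-B and 6.7% of those of HLA-C also occur in another gene's transcript, and 0% and 0.3% of the 100-base windows.

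**Figure D2:**
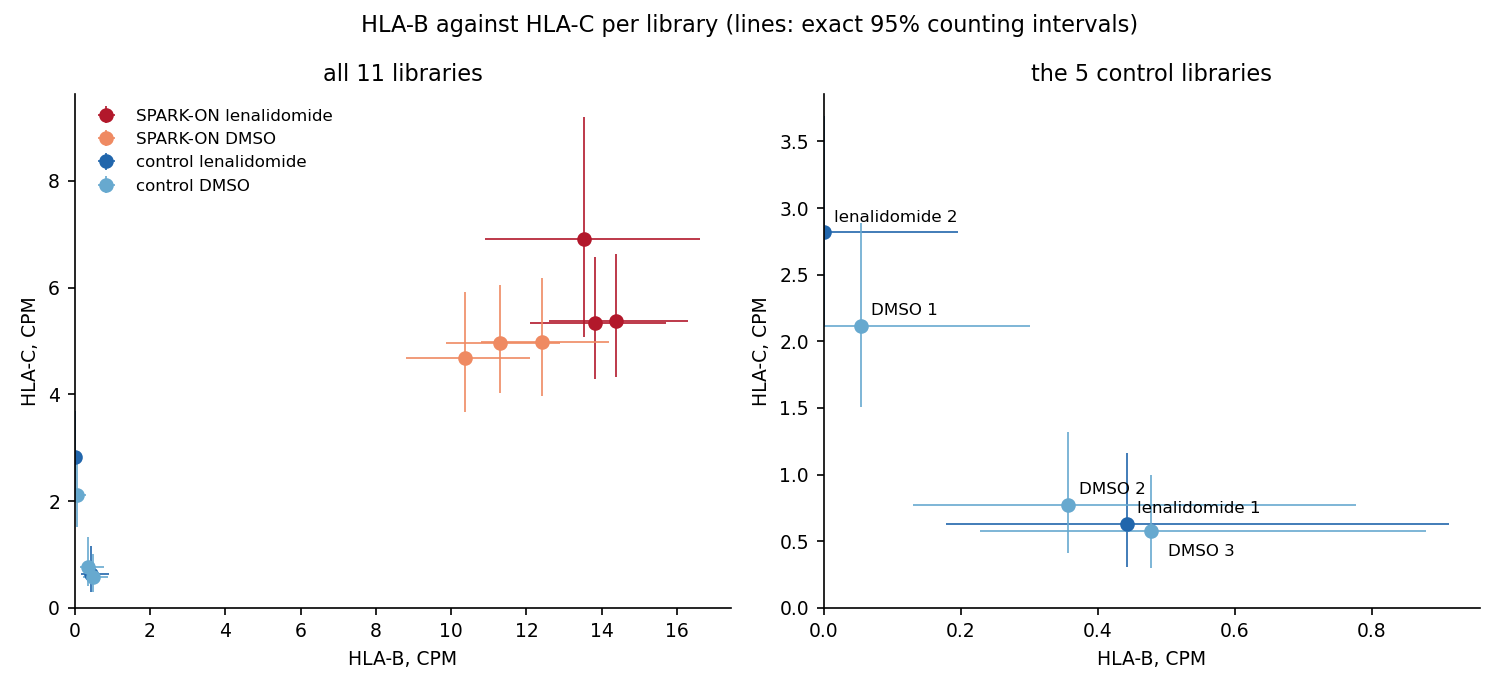
HLA-B against HLA-C in CPM, for all 11 libraries on the left and the 5 control libraries on the right; lines are exact 95% counting intervals, two-sided, which at 0 reads end at 0.196 CPM. The control libraries with the highest HLA-C, lenalidomide 2 at 2.82 CPM and DMSO 1 at 2.12 CPM, are those with the lowest HLA-B, 0 and 0.0543 CPM.

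HLA-E, a nonclassical chain that is read by the NKG2A receptor of natural killer cells, was far more even. Its level was 67, 63.7 and 62.2 CPM in SPARK-ON with lenalidomide, 58.0, 66.6 and 59.1 CPM in SPARK-ON with DMSO, 39.3 and 37.6 CPM in control with lenalidomide and 33.9, 38.1 and 34.1 CPM in control with DMSO. The lowest SPARK-ON library was above the highest control library by a clear margin. HLA-E was higher in SPARK-ON by 0.79 with DMSO (SE 0.086, adjusted p = 5.86e-07) and by 0.74 with lenalidomide (SE 0.098, adjusted p = 7.97e-06).

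B2M, the light chain that every class I heavy chain needs to reach the cell surface, was the most abundant member. It was measured at 1096, 1163 and 1108 CPM in SPARK-ON with lenalidomide and 1153, 1066 and 1141 CPM in SPARK-ON with DMSO. Control cells had 665 and 720.2 CPM with lenalidomide and 706 (replicate 1), 585 and 603 CPM with DMSO. The lines are separate, and within the control DMSO group replicate 1 was the highest. B2M was higher in SPARK-ON 1.77-fold with DMSO (log2 0.83, SE 0.073, adjusted p = 4.57e-08) and 1.62-fold with lenalidomide (log2 0.70, SE 0.083, adjusted p = 2.5e-06).

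Of the peptide transporter's subunits, TAP1 was higher in SPARK-ON and TAP2 did not pass the test. TAP1 was at 45.6, 53.3 and 52.5 CPM in SPARK-ON with lenalidomide, 44.3, 45.3 and 49.3 CPM in SPARK-ON with DMSO, 22.9 and 25 CPM in control with lenalidomide and 26.1, 22.1 and 24.1 CPM in control with DMSO. Every SPARK-ON library had far more TAP1 than any control library, with a change of 0.94 with DMSO (SE 0.096, adjusted p = 2.91e-07) and 1.07 with lenalidomide (SE 0.11, adjusted p = 4.62e-07). TAP2 was at 1.70, 1.96 and 2.50 CPM in SPARK-ON with lenalidomide, 2.28, 2.11 and 3.02 CPM in SPARK-ON with DMSO, 1.14 and 1.22 CPM in control with lenalidomide and 2.28, 1.31 and 1.77 CPM in control with DMSO. With DMSO the lines overlapped, and the difference of 0.47 had a 95% interval of -0.16 to 1.10 (adjusted p = 0.225). With lenalidomide they did not overlap, as for 30.4% of all genes in this direction, and the difference of 0.75 had an interval of -0.04 to 1.53 (adjusted p = 0.123). These intervals include the change of TAP1, so a difference between the transporter subunits was not shown. TAP2 rests on 348 reads in all, and 32.3% of its exon bases are shared with an annotated readthrough gene on the same strand that has 0 reads in all 11 libraries. TAP1 shares 9.5% of its exon bases with the antisense gene PSMB8-AS1, also at 0 reads, and the sources used here do not say whether the counting used strand.

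TAPBP, the tapasin gene, had 36.5, 35.5 and 37.1 CPM in SPARK-ON with lenalidomide, 35.9, 39.2 and 35.3 CPM in SPARK-ON with DMSO, 20.9 and 19.7 CPM in control with lenalidomide and 16.4, 25.2 and 24.8 CPM in control with DMSO. SPARK-ON libraries differed little among themselves, whereas in the control DMSO group replicate 1 was well below the others. TAPBP was higher in SPARK-ON by 0.73 with DMSO (SE 0.13, adjusted p = 0.000132) and by 0.84 with lenalidomide (SE 0.15, adjusted p = 0.000183).

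PSMB9 (LMP2), which takes the place of the constitutive subunit PSMB6 in the immunoproteasome, had 20.6, 21.3 and 24.1 CPM in SPARK-ON with lenalidomide and 19.5, 17.6 and 21.8 CPM in SPARK-ON with DMSO. In control cells it had 4.93 and 4.95 CPM with lenalidomide and 8.14, 3.51 and 4.35 CPM with DMSO. All control values lie well under the SPARK-ON range, the highest being that of control DMSO replicate 1. PSMB9 was higher in SPARK-ON 3.68-fold with DMSO (log2 1.88, SE 0.20, adjusted p = 6.5e-07) and 4.41-fold with lenalidomide (log2 2.14, SE 0.24, adjusted p = 1.38e-06). Within a library, the ratio of PSMB9 to PSMB6 reads was 0.0718 to 0.0973 in SPARK-ON and 0.0289 to 0.0514 in control libraries, which do not overlap, although PSMB6 was itself higher in SPARK-ON. PSMB8 to PSMB5 was also separate, at 0.123 to 0.153 in SPARK-ON and 0.0875 to 0.114 in control libraries. PSMB10 to PSMB7 overlapped, at 0.00748 to 0.0121 in SPARK-ON and 0.00283 to 0.0089 in control libraries. A share over other gene pairs was not computed. Of single genes, 18.7% had all SPARK-ON libraries above all control libraries, so a separation of this kind is common here.

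NLRC5, the transactivator, had 90.3, 83.8 and 84.6 CPM in SPARK-ON with lenalidomide, 91.4, 82.5 and 92.4 CPM in SPARK-ON with DMSO, 43.6 and 42.6 CPM in control with lenalidomide and 37.7, 45.1 and 44.3 CPM in control with DMSO. The lines form separate and narrow ranges. NLRC5 was higher in SPARK-ON by 1.07 with DMSO (SE 0.086, adjusted p = 1.21e-08) and by 1.0 with lenalidomide (SE 0.099, adjusted p = 2.35e-07).

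**Figure D3:**
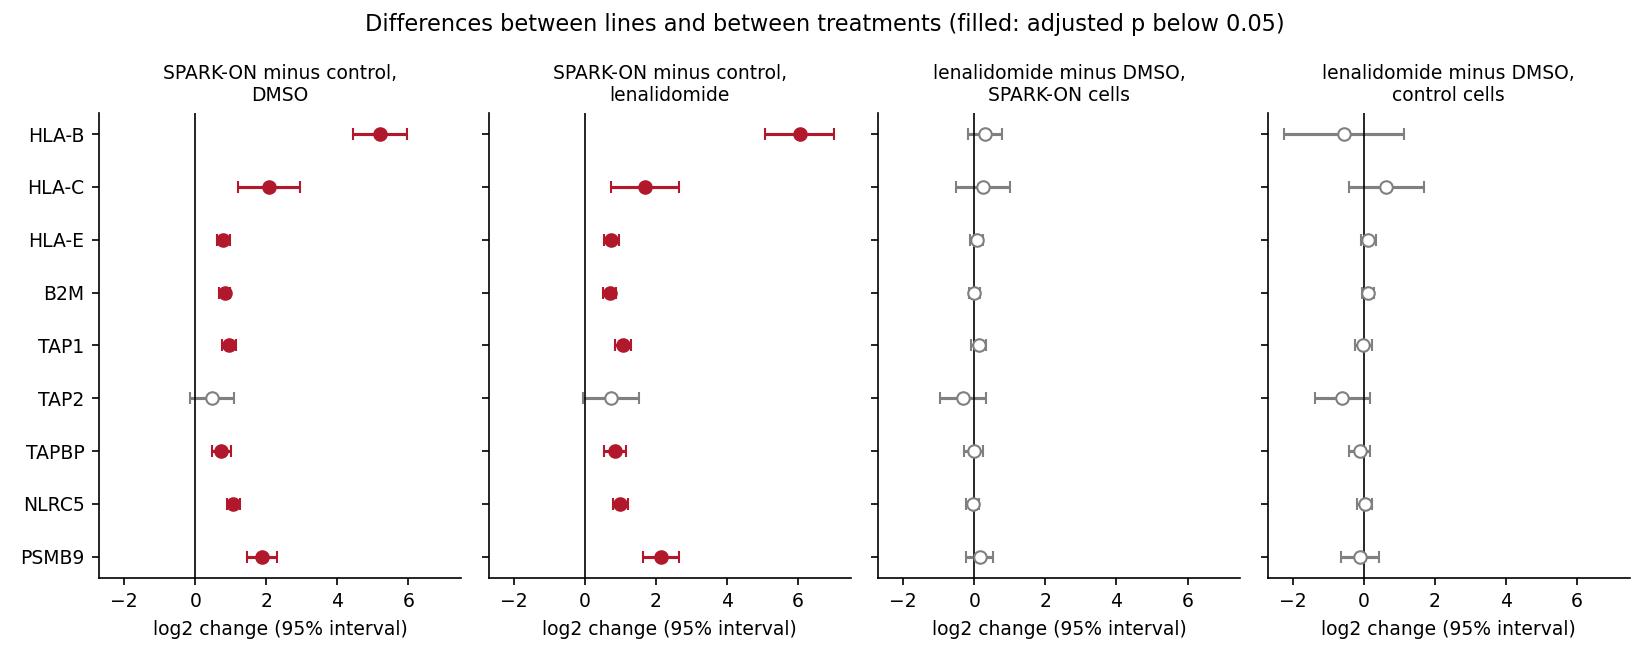
Log2 change of each member with its 95% interval in the line comparisons and for lenalidomide in each line; filled points passed an adjusted p of 0.05. The line comparisons lie above 0 for 8 members, and every lenalidomide interval includes 0.

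The lenalidomide comparison in SPARK-ON cells asks what changes when the drug is used to induce phase separation of n-Myc, and that in control cells what the drug does without SPARK-ON. In SPARK-ON cells 0 of the 9 members passed the test, also at an unadjusted p under 0.05, against 0.0685% of all genes (11 of 16056) at the adjusted threshold and 5.36% at the unadjusted one. The widest changes were those of the members with the fewest reads, HLA-B, HLA-C and TAP2. HLA-B averaged 13.9 ± 0.428 CPM with lenalidomide and 11.4 ± 1.03 CPM with DMSO (SD, n = 3 each), a log2 change of 0.29 with an interval of -0.18 to 0.77 (adjusted p = 0.99). HLA-C averaged 5.88 ± 0.899 CPM with lenalidomide and 4.87 ± 0.165 CPM with DMSO (SD, n = 3 each), with an interval for its log2 change of 0.24 of -0.52 to 1.01 (adjusted p = 0.996). In both genes the lenalidomide libraries lay above all DMSO libraries, as they did for 9.62% of all genes. TAP2 had a change of -0.32 with an interval of -0.97 to 0.34.

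The intervals of the abundant members were narrower. B2M had an interval of -0.15 to 0.16, HLA-E of -0.11 to 0.25, NLRC5 of -0.22 to 0.14, TAPBP of -0.28 to 0.25 and TAP1 of -0.08 to 0.32. That of PSMB9 was -0.24 to 0.54. A change of 1 log2 unit, the size of the line difference in NLRC5, lies outside each of these. Fitting the 6 SPARK-ON libraries alone called 381 of 14652 genes, and 0 of the members, with the lowest adjusted p being 0.245 for HLA-B.

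In control cells 0 of the 9 members passed the test for lenalidomide, also at an unadjusted p under 0.05, against 0.0436% of all genes (7 of 16056) at the adjusted threshold and 4.82% at the unadjusted one. TAP2 was lower in each lenalidomide library than in any DMSO library, a pattern of 6.86% of all genes, with a change of -0.60 and an interval of -1.36 to 0.17. For B2M the interval was -0.04 to 0.30 and for NLRC5 it was -0.18 to 0.23. HLA-B and HLA-C could not be resolved in control cells, with intervals of -2.24 to 1.14 for HLA-B and -0.43 to 1.69 for HLA-C. The difference between the responses of the lines passed for 0 of 9 members and for 0% of all genes by edgeR, with 4.17% of all genes and 0 members at an unadjusted p under 0.05. DESeq2 called 3 genes for this difference, and 0 members. The interval of that difference was -0.36 to 0.10 for B2M, -0.34 to 0.21 for NLRC5 and -0.91 to 2.61 for HLA-B.

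Levels of different genes were compared per kilobase of annotated exon (GENCODE 29). B2M led in every group, at means of 185 in SPARK-ON with lenalidomide, 184 in SPARK-ON with DMSO, 114 in control with lenalidomide and 104 CPM per kilobase in control with DMSO. HLA-E came next in every group, at 20.6 to 21.6 CPM per kilobase in the SPARK-ON groups and 11.9 to 12.9 in the control groups. TAP1 followed at 9.64 to 10.5 CPM per kilobase in the SPARK-ON groups and 4.98 to 5.02 in the control groups. TAPBP, NLRC5 and PSMB9 followed in SPARK-ON cells at 6.39 to 7.28 CPM per kilobase, and each overlapped its neighbour among the 3 in both SPARK-ON groups. In control cells PSMB9 ranked behind NLRC5 without overlap, at 1.61 CPM per kilobase with lenalidomide and 1.74 with DMSO. HLA-B ranked 7th of 9 in SPARK-ON, at 4.56 CPM per kilobase with lenalidomide and 3.72 with DMSO, above HLA-C at 2.34 with lenalidomide and 1.94 with DMSO. In control cells HLA-B ranked last, at 0.0725 with lenalidomide and 0.0971 with DMSO, below TAP2 at 0.185 with lenalidomide and 0.279 with DMSO, and HLA-C at 0.689 with lenalidomide and 0.460 with DMSO. TAP2 was last in SPARK-ON, at 0.321 with lenalidomide and 0.386 with DMSO. It shares 32.3% of its exon bases with the readthrough gene. The sources used here do not give how reads that fit both genes were counted, which could set TAP2 low. In control DMSO the ranges of HLA-C and TAP2 overlapped, as did those of TAP1 and TAPBP and of TAPBP and NLRC5. Exon length counts all annotated isoforms, so it sets these levels low for genes with long, rarely used exons. The identifiers of all 9 members have later version numbers in the count table than in GENCODE 29. The exon lengths and overlaps given here may therefore differ from the gene models used for counting.

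The other genes of the pathway were counted from lists, in SPARK-ON against control with DMSO unless stated. Over all genes tested, 21.1% were higher and 20.4% lower with DMSO, and 19.7% higher and 19.7% lower with lenalidomide. Of the immunoproteasome and PA28 partners of PSMB9, 2 of 4 were higher and 0 lower, with a median of 0.36. They were PSMB8 (0.76, adjusted p = 0.000183) and PSMB10 (1.52, adjusted p = 0.000559), the other catalytic subunits, while the PA28 activator genes PSME1 and PSME2 had changes of -0.19 and -0.04. PSMB8 shares bases with PSMB9 on the opposite strand over 4.5% of the exon bases of PSMB9. Of the constitutive catalytic subunits, 2 of 3 were higher, PSMB6 by 0.85 (adjusted p = 4.65e-07) and PSMB7 by 0.57 (adjusted p = 0.000214), and PSMB5 had 0.22. Of 4 peptide trimming enzymes, the endoplasmic reticulum aminopeptidases ERAP1 (0.49, adjusted p = 0.000453) and ERAP2 (1.07, adjusted p = 6.91e-08) were higher, and the cytosolic and endosomal NPEPPS and LNPEP had -0.03 and -0.02.

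Peptide loading chaperones moved both ways, 1 higher and 3 lower of 5. TAPBPL (TAPBPR), a tapasin relative that edits peptides, was higher by 1.21 (adjusted p = 9.7e-05). CALR (-0.32, adjusted p = 0.000657), PDIA3 (-0.17, adjusted p = 0.0396) and HSPA5 (-0.18, adjusted p = 0.0241), general folding factors of the endoplasmic reticulum, were lower. Of 11 other class I and class I-like genes, 9 were tested, 6 were higher and 0 lower, with a median of 0.86. HLA-F was at 0.990 to 1.62 CPM in SPARK-ON and 0 to 0.239 CPM in control (adjusted p = 0.000201), and the lipid-presenting CD1D at 2.57 to 3.42 CPM in SPARK-ON and 0 to 0.217 CPM in control (adjusted p = 2.96e-06). Both stayed under the filter's level of 0.613 CPM in every control library, so they were tested through SPARK-ON libraries alone, as were OAS1, OAS2, IFI27, RIGI, HLA-DPA1 and HAND2 below. Without HLA-F and CD1D, 4 of 7 class I-like genes were higher, with a median of 0.71 with DMSO and 0.46 with lenalidomide. The stress ligands ULBP2 (1.46, adjusted p = 2.93e-08) and MICB (1.64, adjusted p = 0.00717), which the NKG2D receptor reads, were higher. Other such ligands on the list, MICA and ULBP3, did not pass, and ULBP1 had 0 reads in every library. MR1 (0.86, adjusted p = 0.00348) and the Fc receptor FCGRT (0.71, adjusted p = 0.000905) were also higher. With lenalidomide the counts were 2 of 4 immunoproteasome partners, 2 of 3 constitutive subunits, 2 of 4 trimming enzymes and 6 of 9 class I-like genes higher, and 1 higher and 2 lower of 5 chaperones.

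**Figure D4:**
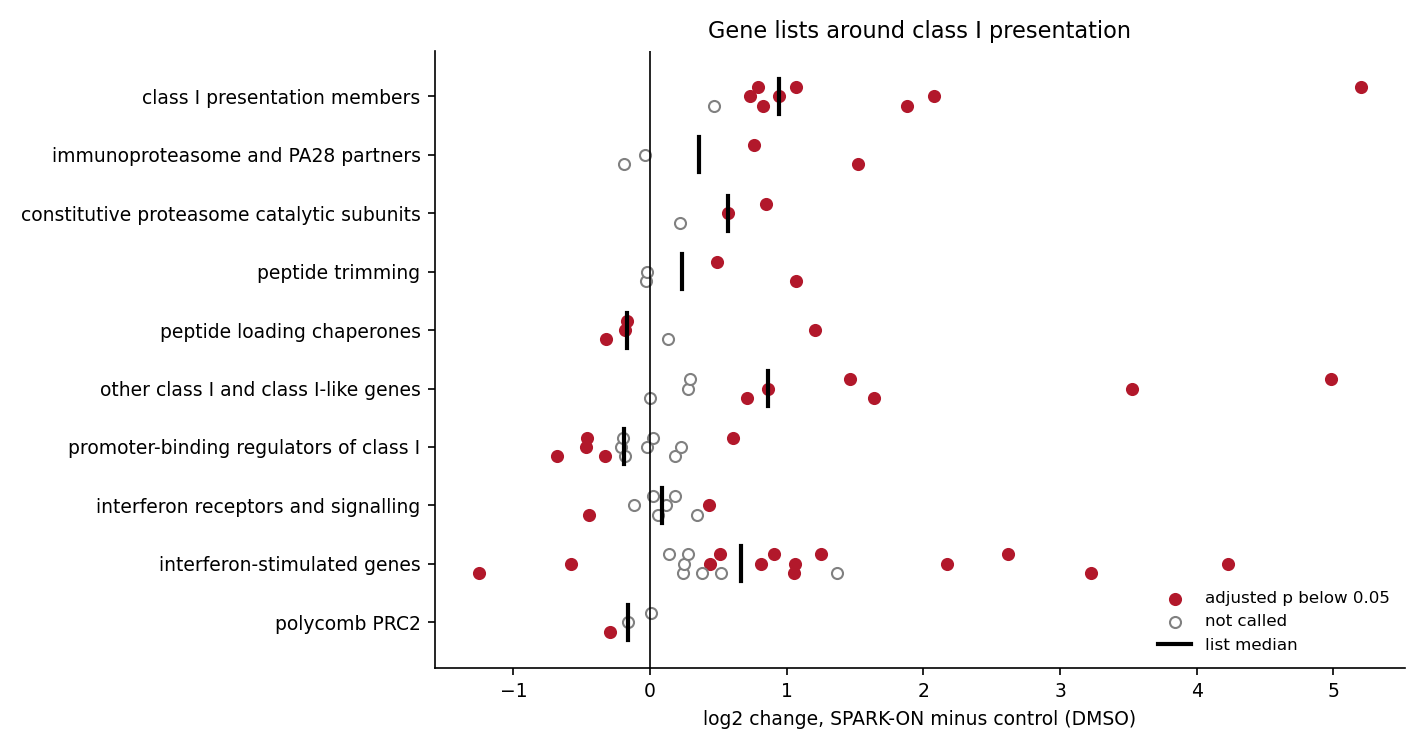
Log2 change of each tested gene, SPARK-ON minus control with DMSO, by list; filled points passed an adjusted p of 0.05, open points did not, and the black bar is the list median. The 9 members hold 8 higher and 0 lower, and the promoter-binding regulators hold 1 higher and 4 lower of 12.

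Of 12 factors that bind class I promoters, 1 was higher and 4 were lower with DMSO, with a median of -0.19, beside 21.1% higher and 20.4% lower over all genes tested, and 2 were higher and 5 lower with lenalidomide. IRF1, which binds the ISRE, was higher by 0.61 (adjusted p = 0.00255), at 15.9 to 18.7 CPM in SPARK-ON and 9.70 to 13.2 CPM in control. RFXANK (-0.68, adjusted p = 0.000693) and RFXAP (-0.47, adjusted p = 0.022), of the RFX complex, NFYB (-0.46, adjusted p = 0.000105), of NF-Y, and IRF2 (-0.33, adjusted p = 0.0106) were lower. With lenalidomide in both lines the other NF-Y genes also passed, NFYA as lower (-0.37, adjusted p = 0.0169) and NFYC as higher (0.39, adjusted p = 0.00882), and with DMSO they had -0.21 (NFYA) and 0.23 (NFYC). Of 10 genes of interferon receptors and signalling, 8 were tested, 1 was higher and 1 lower. IFNGR1 was higher by 0.43 (adjusted p = 0.00122) and the kinase TYK2 lower by a change of -0.45 (adjusted p = 5.89e-05). With lenalidomide 3 of these 8 genes were higher, IFNGR2 among them (0.40, adjusted p = 0.047), and 1 lower. IRF9 had 0 reads in every library and gives no value.

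Of 22 interferon-stimulated genes, 20 were tested, 11 were higher and 2 lower with DMSO, with a median of 0.66, and 10 were higher and 0 lower with lenalidomide, with a median of 0.95. The shares over all genes tested were 21.1% higher and 20.4% lower with DMSO, and 19.7% higher and 19.7% lower with lenalidomide. Of the 20 interferon-stimulated genes tested, 4 were tested through SPARK-ON libraries alone (OAS1, OAS2, IFI27 and RIGI). Of the other 16, 8 were higher and 2 lower with DMSO, with a median of 0.52, and 8 higher and 0 lower with lenalidomide, with a median of 0.55. The higher ones included the antiviral IFIT2 (1.05, adjusted p = 0.000179), IFIT3 (1.25, adjusted p = 9.7e-06), MX1 (1.06, adjusted p = 8.4e-05) and OAS3 (0.51, adjusted p = 0.000124), as well as IFI6 (0.81, adjusted p = 0.00638), GBP1 (0.91, adjusted p = 0.00132) and USP18 (0.44, adjusted p = 0.0344). OAS1 (adjusted p = 0.00356) was at 0.767 to 1.26 CPM in SPARK-ON and 0 to 0.357 CPM in control, and IFI27 (adjusted p = 0.018) at 0.480 to 0.971 CPM in SPARK-ON and 0 to 0.287 CPM in control. BST2 (tetherin) was at 5.82 to 9.66 CPM in SPARK-ON and 0.952 to 2.28 CPM in control (adjusted p = 2.17e-05), and OAS2 at 2.34 to 3.04 CPM in SPARK-ON and 0.0543 to 0.287 CPM in control (adjusted p = 9.35e-07). ISG15 (-0.58, adjusted p = 0.00911) and IFITM1 (-1.25, adjusted p = 0.000185), of the same list, were lower.

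Of 9 genes of MHC class II presentation, 2 were tested. HLA-DPA1 was at 1.08 to 1.39 CPM in SPARK-ON and 0 to 0.163 CPM in control with DMSO (adjusted p = 0.000183). CIITA, the class II transactivator and a relative of NLRC5, had a change of 0.86 (adjusted p = 0.138). Of the PRC2 genes, EZH2, the methyltransferase of a repressive histone mark, was lower (-0.29, adjusted p = 0.00557), and EED and SUZ12 had 0.01 and -0.16. With lenalidomide 0 of the 3 PRC2 genes passed. For lenalidomide against DMSO, in either line, 0 genes of any of these lists passed the test. The 6 mesenchymal markers had 1 higher and 2 lower in both line comparisons, and of 2 adrenergic markers tested HAND2 was higher in both, at no more than 1.33 CPM in any library.

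On chromosome 6 the 7 members from HLA-E to TAPBP span 2.82 Mb of GRCh38, chr6:30489467-33314387, while B2M is on chromosome 15 and NLRC5 on chromosome 16. Of these 7, 6 were higher with DMSO, with a median change of 0.94. HLA-B is among the 6 and was tested through SPARK-ON libraries alone. The other 50 tested genes in the span, all protein-coding, had 11 higher (22.0%) and 6 lower (12%), with a median of 0.03, beside 21.1% higher, 20.4% lower and a median of 0.01 over all genes tested. The higher ones with DMSO include HLA-DPA1, also tested through SPARK-ON libraries alone, and PSMB8 and MICB, which are on the lists above. With lenalidomide the other 50 genes had 10 higher (20.0%) and 7 lower (14.0%), with a median of 0.04. The members, HLA-B among them, had 6 of 7 higher.

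**Figure D5:**
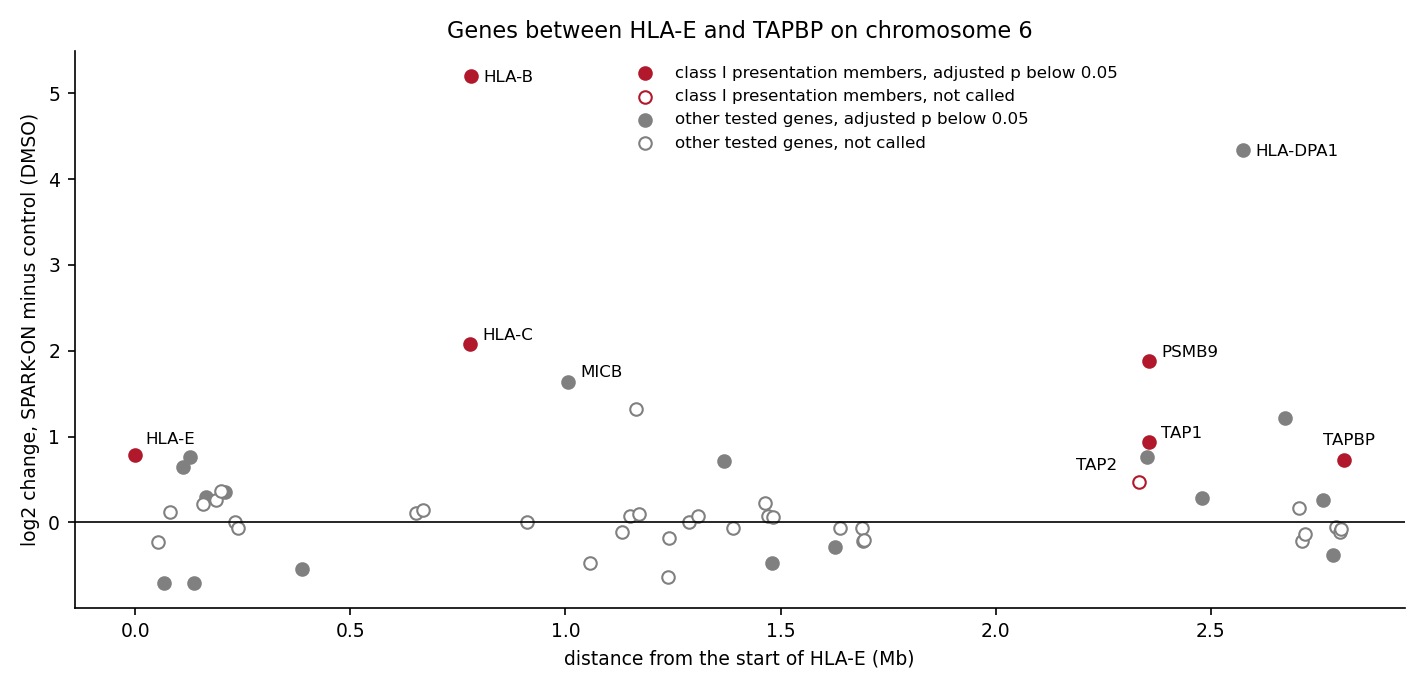
Log2 change, SPARK-ON minus control with DMSO, of the tested genes between HLA-E and TAPBP, by distance in Mb from the start of HLA-E; red marks the members and grey the other genes, filled where the adjusted p was under 0.05. HLA-B at 5.20 and the grey HLA-DPA1 at 4.34 lie highest, and most grey genes lie near 0.

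The pattern of each gene over the 11 libraries was compared by the root mean square difference of log2 CPM, after centring on the gene's own mean, among 10631 other genes with at least 5 CPM on average. This is a description of likeness in which the line difference carries most weight. The genes most like HLA-B were SLC7A8 (0.425), STEAP2 (0.481), CTSS (0.56), MAGEE1 (0.616) and TENM1 (0.673). Those most like TAP1 were GPRASP2 (0.067), CASP4 (0.0735), SLC66A1 (0.0741), AKR1B1 (0.087) and CTSB (0.089). Among the members themselves B2M lay closest to HLA-E (0.132) and to TAP1 (0.144). HLA-B lay far from every other member, from 1.83 for PSMB9 to 2.49 for TAP2, with 2.0 for HLA-C. It had at most 10 reads in any control library.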

How the data were processed

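RNA of SH-EP cells was polyA-selected and sequenced. The values are raw read counts per gene deposited by the authors, whole numbers with no normalization. Per the submitters' processing notes the tools were FastQC, fastp, HTSeq and edgeR with hg38. Aligner, strand setting and annotation release are not given in the sources used here. Of the table's columns, 11 were matched to samples by label, and 3 were not matched and not used. Planned comparisons with baseline cells were therefore not made.

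Counts were analysed with edgeR 4.0.16 in R 4.3.3. The filter was filterByExpr (minimum count 10), scaling was TMM, and glmQLFit fitted 4 groups (7 residual degrees of freedom), tested two-sided by glmQLFTest. P-values were adjusted by Benjamini-Hochberg over 16056 genes at a threshold of 0.05. Log2 changes have SPARK-ON over control, or lenalidomide over its solvent. SE is the change divided by the root of F, and intervals are 95%, not adjusted for the number of genes. The script was tested on simulated counts. The common biological coefficient of variation was 9.4%, 4.71% within SPARK-ON and 12.9% within control libraries. Alternatives used limma-voom (limma 3.58.1), DESeq2 1.42.0, other scalings, no filter, a replicate block, fewer groups and left-out libraries.

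Gene symbols were matched to 61415 of 61533 identifiers. Exon lengths and positions come from GENCODE 29 and promoters from RefSeq. All members are named; the rule for lists was genes that passed and, where none did, the most abundant. Some genes that passed are not named, and others were chosen after their values were seen. Members, lists and tests were chosen with earlier results of these data known. Values of some listed genes are not reported here.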

Additional observations from a re-analysis of the deposited data

How the results depend on the processing

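Over the alternatives run, the count of members higher in SPARK-ON stayed at 8 of 9 with DMSO, and at 8 with lenalidomide except without control lenalidomide replicate 1, where HLA-C (1.03, adjusted p = 0.0815) was lost and 7 remained. These counts include HLA-B, which passed the main count filter through SPARK-ON libraries alone. No member passed for lenalidomide in either line or for the difference in response in any alternative. Counts over all genes were less stable, and the cause was not tested. For lenalidomide in SPARK-ON cells the 11 genes became 35 without the filter, 45 with DESeq2, 381 with the compared groups alone, 2 with the replicate block, 0 to 5 with 1 library left out and 254 without control DMSO replicate 1 and control lenalidomide replicate 2. For lenalidomide in control cells the 7 genes became 27, 24, 0, 1, 0 to 21 and 107 under the same alternatives. For the difference in response 0 genes became 1 without the filter, 3 with DESeq2 and 63 without the 2 libraries. The lines differed in 6081 genes with DMSO and 5645 with lenalidomide under the replicate block, against 6675 and 6334 without it. Same-numbered libraries did not deviate together (correlations from -0.182 to 0.015). Whether the numbers pair the samples cannot be decided from this. With 2 or 3 libraries per group, deviations from the group mean are tied to each other. In control lenalidomide they are mirror images, with -0.182 and 0.182 against control DMSO replicate 1. The block left the members called at 8, 8, 0, 0 and 0.

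Changes of sign were limited to differences that had not passed. For lenalidomide in control cells, TAP1 was 0.01 with the replicate block. With 1 library left out at a time, the change spanned -0.08 to 0.05 for TAP1, -5.36 to 0.53 for HLA-B, -0.86 to 1.40 for HLA-C, -0.06 to 0.07 for NLRC5 and -0.33 to 0.31 for PSMB9. Without the 2 libraries it was 0.05 for HLA-B, -0.08 for HLA-C, -0.05 for NLRC5 and 0.31 for PSMB9. In SPARK-ON cells it spanned -0.05 to 0.03 for TAPBP. The difference in response spanned -0.25 to 5.65 for HLA-B, -1.16 to 1.09 for HLA-C, -0.10 to 0.01 for HLA-E, -0.11 to 0.02 for NLRC5 and -0.16 to 0.48 for PSMB9 with 1 library left out, and was 0.31 for HLA-C and -0.17 for PSMB9 without the 2 libraries. In the fit of control libraries alone HLA-B did not pass the filter. Depth limits HLA-B, HLA-C and TAP2 most, with 24, 127 and 142 control reads. A group left with 1 library was assumed to vary like the others.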
